A study of Mus musculus with 27 samples.

Results

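Cushion and valve endocardium of the E11.5 (E for embryonic day) mouse heart was described in single-cell libraries, as 214 of 6032 cell barcodes. A barcode was counted as a member when haemoglobin genes took under 10% of its unique molecular identifiers (UMIs, 1 per captured transcript) and the cardiomyocyte genes Tnnt2, Actc1, Myl7, Myl4 and Tnnc1 together took under 0.5%. It also needed at least 3 UMIs of the endothelial genes Pecam1, Cdh5 and Egfl7. Finally, the summed UMIs of Wnt4, Nts, Stmn2 and Pi16 had to exceed those of Npr3, Gpr182, Plvap and Irx5, which mark chamber endocardium and vessels. The members were therefore chosen from the same UMI counts that are described here, and differences between the members and other cells carry no test. Klf2 and Aqp1, a further pair of markers of these cells, were not used to choose them, but were listed with earlier results of these data known.

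The cells came from C57BL/6 hearts of wild-type embryos (Hand2as+/+, written +/+) and of embryos homozygous for allele F (Hand2asF/F, written F/F), in which the full length of the long non-coding RNA gene Hand2os1 (also Hand2as) is deleted. This gene lies next to Hand2, which encodes a transcription factor of heart development. Heterozygous parents were intercrossed, 6 hearts per genotype were dissociated with trypsin one at a time, dead cells were sorted out with 7-AAD staining, and the cells of each genotype were pooled into 1 droplet library. Whole E11.5 hearts of the same strain were also sequenced in bulk, as 3 libraries of heterozygotes (Hand2asF/+, written F/+) and 3 of F/F. The bulk controls thus carry 1 deleted copy, whereas the single-cell controls carry none.

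The endocardium is the endothelial lining of the heart chambers. Over the cushions of the atrioventricular canal and outflow tract it faces disturbed flow, some of its cells leave the sheet and become mesenchyme, and the cells that stay form the covering of the valves. Notch, bone morphogenetic protein and Wnt signals and the flow-responsive factors Klf2 and Klf4 are known to act in this lining.

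With 1 library per genotype, no difference between the +/+ and F/F single cells can be tested, and intervals below (95%, exact) cover counting error only. The libraries held 2563 +/+ and 3469 F/F barcodes, where the protocol aimed at about 5000 each, and no barcode had fewer than 3746 UMIs. Of the barcode sequences, 18 occurred in both libraries, including 1 member. The F/F library had 0 UMIs of Y-linked genes in 3469 barcodes, while 463 +/+ barcodes had at least 1, so sex and genotype cannot be told apart between the libraries. Among members, 16 of 86 +/+ cells and 0 of 128 F/F cells had a Y-linked UMI. The deleted gene had 1 UMI in the whole +/+ library and 9 in the F/F library (0 and 1 in members), too few to check the labels, and the place of these 3′ tags relative to the deletion is not given in the sources used here.

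Members numbered 86 in the +/+ and 128 in the F/F library. They made up 29.4% (Clopper-Pearson interval 24.2% to 34.9%) of the 293 +/+ endothelial cells that passed the earlier steps and 33.0% (28.3% to 37.9%) of the 388 F/F ones, so the intervals overlapped. The opposite order of the marker sums, called chamber and vascular endothelium below, was found in 128 and 175 cells. A further 79 and 85 cells were tied and left out, 71 and 70 of them with no UMI of any of the 8 genes. The median depth of members was 11746.5 UMIs in +/+ and 12176.5 in F/F, below the 15547.5 and 14530 of chamber and vascular endothelium. Summed over cells, members held 1084329 and 1667444 UMIs. Levels are given as CPM (counts per 1000000), UMIs scaled to the total of the class and library, so that 1 UMI was worth 0.922 CPM in +/+ members and 0.60 CPM in F/F members.

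The markers of the rule overlapped only in part within the members. Wnt4, a secreted Wnt ligand, was detected in 59 of 86 +/+ and 64 of 128 F/F members. Nts, which encodes the peptide neurotensin, was detected in 49 and 82, Stmn2, a microtubule-binding protein, in 62 and 92, and Pi16, a secreted protein, in 54 and 75. All 4 were found together in 24 +/+ and 21 F/F members, and a single marker carried 17 and 25. In cells with at least 10% haemoglobin UMIs, whose median depths were 11210 and 11795 UMIs, each of the 4 was detected in at most 1.41% of +/+ and 1.16% of F/F cells, the shares of Stmn2.

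Klf2, a zinc-finger factor induced by fluid shear, was higher in members than in chamber and vascular endothelium in both libraries. Its level was 781 CPM (729 to 836) in +/+ members and 956 CPM (910 to 1004) in F/F members, against 253 and 350 CPM in chamber and vascular endothelium, or 3.09-fold (2.77 to 3.45) and 2.73-fold (2.52 to 2.97). All other cells of the libraries had 31.6 and 44.6 CPM. The related factor Klf4 stood at 120 and 131 CPM against 18.3 and 27.1 CPM, a ratio of 6.54 and 4.84. The water channel Aqp1 reached 201 CPM in +/+ and 119 CPM in F/F members, against 15.0 and 25.3 CPM. The 20 pan-endothelial genes summed to 3162 and 3071 CPM in members, 3094 and 2879 CPM in chamber and vascular endothelium and 327 and 311 CPM in all other cells. The list includes the gate genes Pecam1, Cdh5 and Egfl7, so its excess over all other cells was in part set by the rule. Of the 17 genes tested outside the rule, 1 was at least 2-fold higher in members than in chamber and vascular endothelium in both libraries. The 3 lower ones were Emcn, Kdr and Cldn5. Klf2 and Aqp1 thus pointed the same way as the cushion markers of the rule, but give no independent check, being listed with earlier results known. The rule's own cushion markers were by choice of the cells 6.18 to 43.1 times as high in members (Wnt4 242 and 142 CPM, Nts 141 and 197, Stmn2 353 and 442, Pi16 146 and 123). The listed chamber and vessel markers outside the rule were not lower in members as a set. Over the 5 tested, the median ratio to chamber and vascular endothelium was 1.61 in +/+ and 1.98 in F/F. In both libraries 1 of them was at least 2-fold higher and 1 lower.

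**Figure D1:**
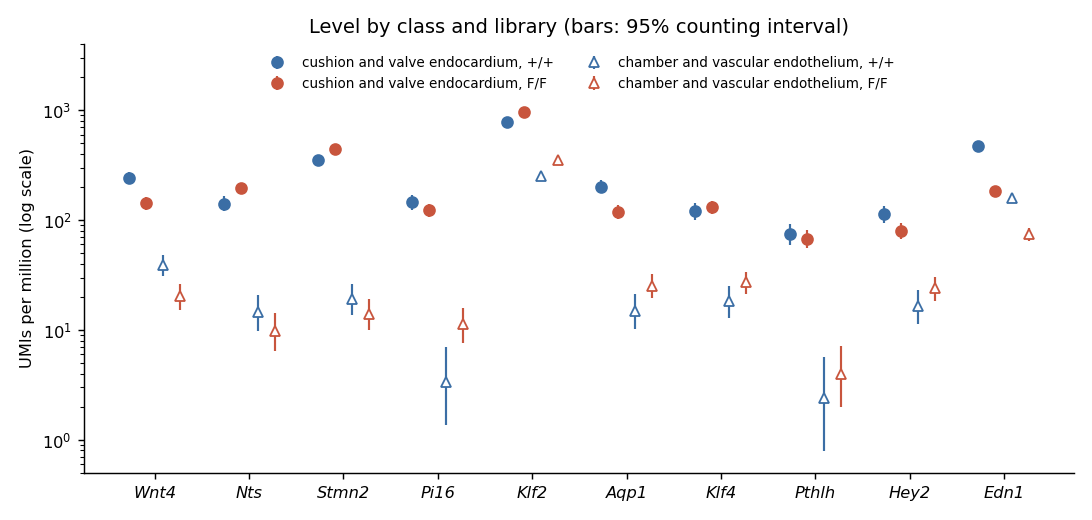
CPM (log axis) of 10 genes in cushion and valve endocardium (filled circles) and chamber and vascular endothelium (open triangles) of the +/+ (blue) and F/F (red) libraries, with bars for the 95% exact Poisson interval. Each of the 10 genes was higher in members within both libraries, Klf2 with the highest member level (781 and 956) and Pthlh with the lowest (74.7 and 67.2).

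The start of Klf2 is shown because its promoter holds a match to the MEF2 site (CTA, 4 bases that are each A or T, then TAG; the same on both strands), and MEF2 factors are known to drive Klf2 in endothelium under flow. RefSeq promoter windows (250 bases before to 50 after a start, GRCm38.p6) were found for 37 of 50 looked-up genes, in 44 windows. The stretch below, chr8:72318904-72318993 on the plus strand, has the match in capitals, ending 108 bases before the start.
Klf2: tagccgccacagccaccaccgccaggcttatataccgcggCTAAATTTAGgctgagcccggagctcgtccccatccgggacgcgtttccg
The site occurred in 183 of 32851 windows (0.557%). It occurred in 1 of 16 windows of the flow-responsive list, that of Klf2, and in 0 of 11 windows of the 14 genes with the highest ratio to chamber and vascular endothelium. A match describes the letters only.

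Along the marker rule itself, levels followed the margin, the cushion marker UMIs minus the chamber marker UMIs of a cell. With both libraries summed, Klf2 stood at 1409 CPM in the 66 members with a margin of 10 or more, 1047 CPM in 73 with 4 to 9, 510 CPM in 36 with 2 or 3, and 239 CPM in 39 with 1. Just outside, the 70 cells with a margin of -1 had 264 CPM. The edge of the rule thus did not part cells by Klf2, while the well-marked members stood apart. Twist1, a transcription factor of cushion mesenchyme, went the other way, with 21.2 CPM at a margin of 10 or more and 153 CPM at 1, and the matrix gene Postn had 58.6 and 301 CPM. The junction gene Cdh5 had 221 CPM at a margin of 10 or more and 50.9 CPM at 1. A like pattern held for the endothelial gate: the 61 members with 3 or 4 endothelial UMIs had 233 CPM of Twist1 and 370 CPM of Klf2, against 35.7 and 1075 CPM in the 153 with 5 or more. Members near either edge therefore carried more transcripts of mesenchyme genes than members well inside.

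**Figure D2:**
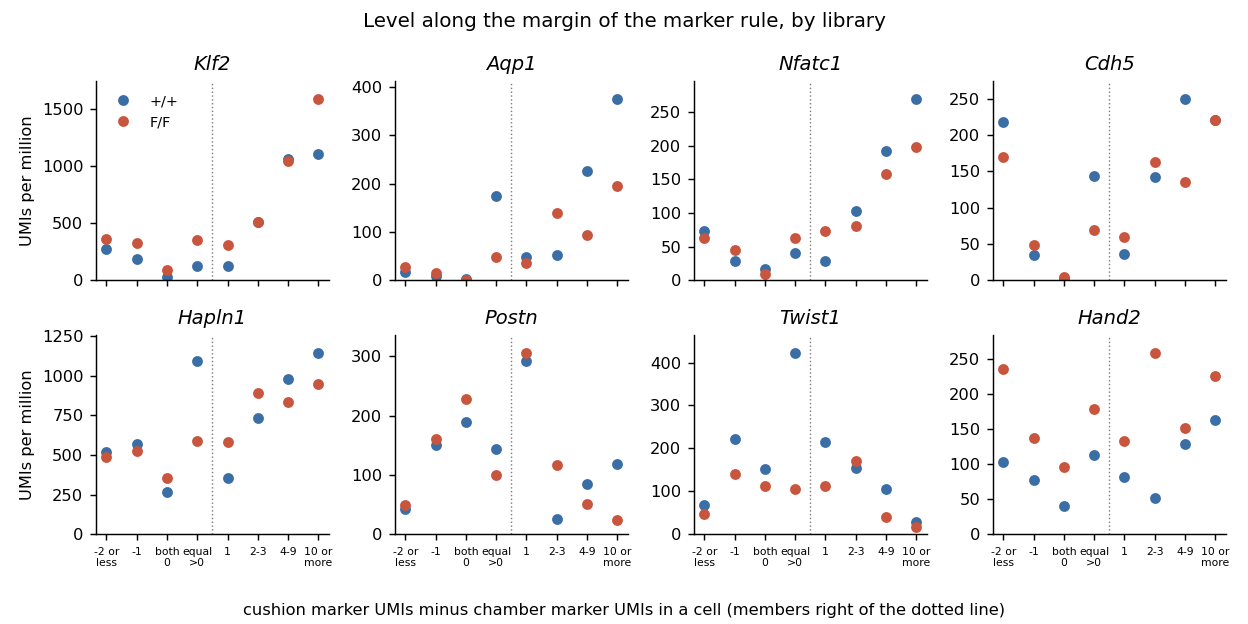
CPM of 8 genes by the margin of the marker rule (cushion marker UMIs minus chamber marker UMIs, in 8 bands; members lie right of the dotted line) in the +/+ (blue) and F/F (red) libraries. Klf2, Aqp1 and Nfatc1 were highest at a margin of 10 or more in both libraries, whereas Postn and Twist1 were higher at a margin of 1 than at 10 or more; points are sums over the cells of a band, without error bars.

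Over all genes, 185 of 8755 (2.11%) were at least 2-fold higher in members than in chamber and vascular endothelium in both libraries, and 131 (1.5%) at least 2-fold lower, 316 (3.61%) in either direction. Among genes outside the rule with at least 100 UMIs over both classes and libraries, ranked by the library with the ratio nearer to 1, the highest was Pthlh, which encodes a parathyroid hormone-related peptide. It had 74.7 CPM in +/+ and 67.2 CPM in F/F members, against 2.41 and 3.98 CPM, or 31.0-fold (12.7 to 97.9) and 16.9-fold (9.09 to 34.8). Mfap5, a microfibril component, followed with 63.6 and 61.8 CPM against 5.31 and 7.59 CPM. Other secreted products among the 14 highest were Pgf, a ligand of the vascular endothelial growth factor (VEGF) family, at 59.0 and 31.2 CPM against 3.86 and 5.06 CPM, and Angptl2, an angiopoietin-like protein, at 104 and 64.2 CPM against 20.7 and 13.0 CPM. The matrix-associated Tinagl1 stood at 308 and 303 CPM against 42.9 and 56.0 CPM. Enzymes in this group were Cdo1, a cysteine dioxygenase (193 and 270 CPM against 28.9 and 36.2), Cyp26b1, which degrades retinoic acid (52.6 and 38.4 against 8.68 and 5.78), and Sulf1, which trims sulphate from heparan sulphate (85.8 and 69.0 against 17.4 and 14.1). The calcium-binding S100a6, the protease inhibitor Serpinb1a, the pump regulator Fxyd7, Prrt4 and Ccdc141 completed the 14 with Klf4. Ccdc141 was not confined to members, since all other cells had 55.1 and 53.9 CPM.

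The 8 lowest ratios included those of platelet-lineage genes. Tm4sf1, an endothelial membrane protein, had 31.4 and 36.0 CPM in members against 225 and 228 CPM in chamber and vascular endothelium. Igfbp3, which binds insulin-like growth factors, Sost, a secreted Wnt inhibitor, Bik, a pro-apoptotic protein, and the unnamed model Gm43194 had at most 6 UMIs each in the members of either library. The platelet-lineage genes were Gp9, Gp1bb and Pf4, a platelet chemokine, the last at 9.22 and 27.6 CPM against 933 and 422 CPM. Within the comparison class, Pf4 lay mostly in cells at the edge of the rule: cells with a margin of -1 had 3615 and 1682 CPM, and cells at -2 or lower 43.7 and 32.6 CPM. At that edge 2 +/+ cells and 1 F/F cell had 5 or more Pf4 UMIs. The platelet-lineage list (6 genes) summed to 25.8 and 42.6 CPM in members, against 1150 and 495 CPM in chamber and vascular endothelium.

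Signalling genes were grouped by role, in lists chosen with earlier results of these data known. The median ratio of members to chamber and vascular endothelium over all 8755 genes was 1.01 in each library. Of all genes 2.11% were at least 2-fold higher in both libraries and 1.5% lower. The lists are read beside these values, and the flow-responsive list holds Klf2, itself a marker of the members. Of 14 flow-responsive genes and mechanosensors tested, 4 were at least 2-fold higher in both libraries and 0 lower (median 1.66 in +/+ and 1.57 in F/F). These were Klf2, Klf4, Edn1 and Heg1. Edn1, the ligand endothelin 1, stood at 468 and 182 CPM in members against 160 and 74.5 CPM, and Heg1, a receptor of the cerebral cavernous malformation pathway, at 185 and 103 CPM against 59.8 and 42.3 CPM. Of 15 Wnt genes tested, 4 were higher and 0 lower (median 1.57 and 1.27). The ligand Wnt9b had 29.5 and 16.2 CPM in members, with 0 UMIs in +/+ chamber and vascular endothelium and 2 in F/F. The F/F ratio was 22.4 (5.63 to 194), and the exact lower bound of the +/+ ratio was 15.6. The ligand Wnt11 (48.0 and 34.2 CPM against 17.9 and 15.2), the inhibitor Dkk2 (43.3 and 32.4 against 17.4 and 2.17) and the potentiator Rspo3 (24.0 and 13.8 against 4.34 and 5.78) completed the 4. Mesenchyme cells of the cushions (Sox9, Twist1, Prrx1 and Pdgfra at 3 UMIs or more, no endothelial UMI; 185 +/+ and 215 F/F cells) had 0 UMIs of Wnt9b in either library.

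In the Notch list 4 of 16 genes were at least 2-fold higher in members in both libraries and 0 lower, with a median ratio of 1.08 and 1.18. They were 1 ligand and 3 targets. The ligand Jag1 had 36.0 and 35.4 CPM in members against 8.68 and 8.68 CPM. The target Hey2, a transcriptional repressor, had 113 and 79.8 CPM against 16.4 and 23.9 CPM, or 6.86-fold (4.66 to 10.3) and 3.34-fold (2.47 to 4.56). Hey1 (58.1 and 66.6 CPM against 25.6 and 28.2) and Heyl (29.5 and 22.2 against 7.24 and 6.87) were the other targets, while Hes1, a target as well, was level with chamber and vascular endothelium at 288 and 172 CPM against 305 and 172 CPM. The receptor Notch1 reached 2.12-fold in +/+ and 1.68-fold in F/F. The start of Hey2 is shown because its window is 1 of 2 among 15 Notch-list windows (13.3%) that hold the RBPJ motif GTGGGAA or its reverse complement TTCCCAC, the site of the Notch pathway's DNA-binding factor. The stretch, chr10:30842944-30843030 (GRCm38.p6), is printed along the minus strand, on which Hey2 is read, with the reverse complement in capitals, 200 bases before the start.
Hey2: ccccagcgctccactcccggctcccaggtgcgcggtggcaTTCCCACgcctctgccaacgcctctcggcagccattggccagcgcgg
Among all 32851 windows 2097 (6.38%) hold this motif on either strand, and the windows of the 14 highest genes hold it in 0 of 11.

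In the remaining lists fewer genes passed the 2-fold threshold. In the bone morphogenetic protein and TGF-beta list, 1 of 15 genes was higher, the intracellular inhibitor Smad6 (214 and 151 CPM against 82.5 and 64.3), and 1 lower, the co-receptor Tgfbr3 (12.0 and 7.20 against 38.6 and 34.7). Of 23 transcription factors of endothelial-to-mesenchymal transition and heart development, Tbx20 (301 and 240 CPM against 105 and 99.1) and Nfatc1, a factor of valve formation (163 and 139 against 61.8 and 58.2), were higher and 0 lower. Of 28 matrix genes, 3 were higher and 1 lower. The higher ones were Eln, which encodes elastin (121 and 122 CPM against 26.1 and 26.8), Has2, the hyaluronan synthase of cushion jelly (38.7 and 37.2 against 18.8 and 10.1), and the protease Adamts5. Hapln1, which links hyaluronan to proteoglycans, was the most abundant after Sparc, at 847 and 820 CPM against 530 and 496 CPM. Of 13 VEGF, angiopoietin and neuregulin genes, 0 were higher and 1 lower, the receptor Kdr (43.3 and 39.0 CPM against 126 and 108). Of 20 cell cycle genes, the inhibitor Cdkn1a was higher (47.0 and 46.2 CPM against 15.9 and 6.87) and the cyclin Ccnd2 lower (244 and 218 against 598 and 490), with a median over the list of 0.793 and 0.767.

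Members differed widely among themselves. When each cell was thinned to 5000 UMIs, Klf2 ranked 10th of 2984 genes by the ratio of variance to mean over cells, taking the lower of the libraries, and Aqp1 21st. The first ranks were Malat1, a nuclear RNA, Cdkn1c, an imprinted cell cycle inhibitor, and Fabp5, a fatty acid carrier. Klf2 was detected in 68 of 86 +/+ and 103 of 128 F/F members, with a median of 5 and 6 UMIs per cell and up to 67 and 83 in a cell. Aqp1 was detected in 36 and 52 members, with a median of 0, and 49 of its 218 +/+ UMIs lay in 1 cell. In cells with at least 10% haemoglobin UMIs, Klf2 was detected in 3.93% and 6.66% and Aqp1 in 1.01% of cells in each library.

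Members with and without a Wnt4 UMI were set side by side, a split chosen after the values were seen and given as a description. Wnt4 is a gene of the rule, so the split in part follows the margin. Klf2 was 978 CPM in 59 +/+ members with Wnt4 and 389 CPM in 27 without, and 1396 and 584 CPM in 64 and 64 F/F members. Pthlh was 108 against 8.28 CPM in +/+ and 128 against 15.5 CPM in F/F, and Wnt9b 44.3 against 0 and 32.7 against 2.21 CPM. Mfap5, Aqp1, Klf4 and Hey2 also had the higher level with Wnt4 in both libraries. Edn1 did not, with 384 against 638 CPM in +/+ and 217 against 153 CPM in F/F. The mesenchyme genes were arranged the other way, with Twist1 at 77.5 against 193 CPM in +/+ and 15.7 against 116 CPM in F/F, and Sox9 at 52.6 against 193 and 73.3 against 173 CPM. Hand2 had 115 against 119 CPM in +/+ and 198 against 178 CPM in F/F, so its level differed little with Wnt4. Median depths were 11652 against 12214 UMIs in +/+ and 11255 against 12975 in F/F. Splits by other rule genes gave other patterns. With and without Nts, Klf2 was 784 and 777 CPM in +/+ and 1115 and 693 CPM in F/F, and with and without Stmn2 981 and 426 CPM in +/+ and 1067 and 676 CPM in F/F. Sox9 with and without Stmn2 was 107 and 87.2 CPM in +/+ but 105 and 184 CPM in F/F, so its order differed between the libraries.

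**Figure D3:**
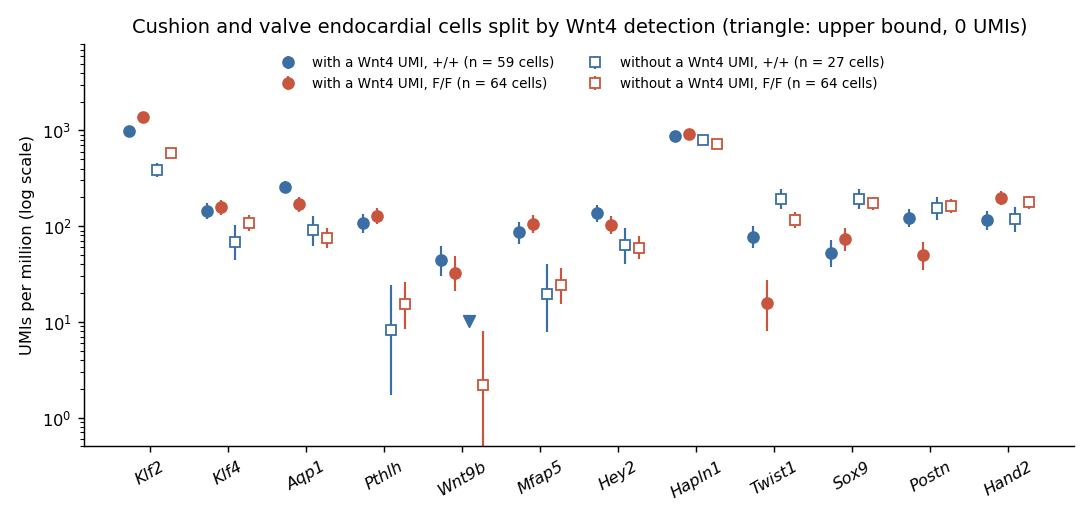
CPM (log axis) of 12 genes in members with a Wnt4 UMI (filled circles; 59 +/+ and 64 F/F cells) and without (open squares; 27 and 64 cells), with 95% exact Poisson intervals and a triangle at the upper bound where 0 UMIs were counted. Klf2, Pthlh, Wnt9b and Mfap5 were higher with Wnt4 in both libraries, and Twist1 and Sox9 were lower.

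Between the libraries, Hand2 had the higher level in F/F members. Its level was 116 CPM (96.8 to 138) in +/+ and 187 CPM (167 to 209) in F/F members, a ratio of 1.61 (1.31 to 2.0). The ratio was 2.20 (1.87 to 2.59) in chamber and vascular endothelium, 1.38 in cushion mesenchyme, 2.17 in cells with at least 10% haemoglobin UMIs and 1.56 in all cells that were not members. A Hand2 UMI was present in 40.2% of +/+ and 53.3% of F/F members after thinning (58.1% and 74.2% before), against 1.1% and 3.51% of cells with at least 10% haemoglobin UMIs. Hand2 was thus above 1 in each class compared. Among members with an Xist UMI and no Y-linked UMI, the ratio was 1.79.

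Over all genes tested in members, 113 of 5641 (2.0%) were at least 1.5-fold higher in F/F with an interval that left out 1, and 225 (3.99%) at least 1.5-fold lower, 338 (5.99%) in either direction. In chamber and vascular endothelium the shares were 1.98% and 4.5% of 7440 genes, 6.48% in either direction. Both comparisons draw on the same pair of libraries, so the ratios of a gene are given side by side below. Of the 113 and 225 genes, 2 and 17 had at least 50% of their UMIs, in the library where they were higher, in 2 cells.

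Among the marker genes, Wnt4 and Aqp1 were the lower ones in F/F members. Wnt4 had a ratio of F/F to +/+ of 0.588 (0.491 to 0.704) in members, 0.518 in chamber and vascular endothelium and 0.614 in all other cells. Aqp1 had 0.591 (0.485 to 0.719) in members and 1.69 (1.09 to 2.67) in chamber and vascular endothelium, with 0.984 in all other cells, so its order differed between the classes. Without the cell with the most Aqp1 UMIs in each library (49 of 218 UMIs in +/+ and 16 of 198 in F/F), the ratio in members was 0.692 (0.558 to 0.858), no longer past 1.5-fold. The share of members with an Aqp1 UMI was 29.3% in +/+ and 33.3% in F/F after thinning. Klf2 had a ratio of 1.22 (1.13 to 1.33), Nts 1.39 (1.15 to 1.70), Stmn2 1.25 (1.1 to 1.42) and Pi16 0.844 (0.682 to 1.04).

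In the functional lists 4 of 115 genes tested were higher and 10 lower in F/F members (past 1.5-fold, with an interval without 1), 12.2% in either direction beside 5.99% of all genes. Of 10 flow-responsive genes tested, Edn1, Heg1 and the channel Piezo1 were lower and Krit1, an adaptor of the Heg1 pathway, was higher (median of the list 1.04, of all genes 0.988). Edn1 had a ratio of 0.389 (0.336 to 0.449) in members, 0.466 in chamber and vascular endothelium, 0.367 in mesenchyme and 0.375 in all other cells. Heg1 had 0.556 (0.451 to 0.686), 0.707, 0.704 and 0.870 in the same order. Of 10 Notch genes, 1 was lower, Hes1 at 0.598 (0.508 to 0.704), with 0.563, 0.545 and 0.564 in the other classes. The ligand Tgfb1 was the 1 lower of 12 bone morphogenetic protein and TGF-beta genes, at 0.602, with 0.547, 0.486 and 0.545 elsewhere. Twist1 and Msx1 were the lower and Hand2 the higher of 20 transcription factors, and Wnt4 and Wnt9b the lower of 10 Wnt genes (median 0.744). Twist1 had 0.604 (0.465 to 0.783) in members and 0.647, 0.477 and 0.502 elsewhere, so it was below 1 in each class. Of 25 matrix genes, Col1a2 and Timp3 were higher, although 32 of the 68 F/F UMIs of Col1a2 lay in 2 members and its ratio went from 1.58 to 0.837 without members that held myeloid or epicardial UMIs. Of 9 VEGF, angiopoietin and neuregulin genes the ligand Nrg1 was lower, and of 19 cell cycle genes 0 passed.

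The lowest ratios in members belonged in part to RNAs that were also lower in F/F in other classes. The lowest was that of B230312C02Rik, at 0.0439 (0.0139 to 0.107), although 56 of its 74 +/+ UMIs lay in 2 members. It had 0.354 in chamber and vascular endothelium, 0.171 in mesenchyme and 0.293 in all other cells. Snhg9, a small nucleolar RNA host gene, had a ratio of 0.160 (0.119 to 0.212) in members and 0.176, 0.235 and 0.219 in chamber and vascular endothelium, mesenchyme and all other cells. Pbld2, Rapgef4, Plk4 and Rrm2b were between 0.176 and 0.281 in members and between 0.250 and 0.575 in those classes. In cells with at least 10% haemoglobin UMIs, Rapgef4 had 1.15 (0.719 to 1.86). Other extreme ratios rested on few cells. Mpo, a myeloid peroxidase, had 77 of its 88 +/+ UMIs in 2 members, and Fcgr3, an Fc receptor of myeloid cells, 43 of 46. Upk3b, a marker of the epicardium, had 54 of 62 F/F UMIs in 2 members. Gm29666 had 84 of 118 +/+ UMIs in 2 members, Pbld2 102 of 159, and B930036N10Rik 70 of 77 in 1 member.

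Cardiomyocyte genes, which the rule limits but does not remove, included the highest ratios after that of Upk3b, those of Myl7 and Myl4. Of 9 genes of the cardiomyocyte list tested, 6 were higher in F/F members and 0 lower, with a median ratio of 2.15, beside 2.0% higher of all genes. Of these 6, Actc1, Tnnc1, Myl7 and Myl4 are genes that the rule limits, while Tnni3 and Myh7 lie outside it. Myl7, the atrial light chain, had 65.5 CPM in +/+ and 261 CPM in F/F members, a ratio of 3.98 (3.09 to 5.20), with 1.71 in chamber and vascular endothelium and 1.28 in all other cells. It was detected in 111 of 128 F/F members, and 2 of them held 114 of its 435 UMIs. Myl4, a light chain as well, had a ratio of 3.48 and was detected in 112 F/F members. Its ratio was 2.16 in chamber and vascular endothelium, 2.09 in mesenchyme and 1.80 in cells with at least 10% haemoglobin UMIs. In the same order Myl7 had 1.71, 1.42 and 1.66, Tnnc1 2.40, 2.26 and 2.09, and Actc1 1.77, 0.875 and 1.41. Higher levels of these genes in F/F were thus not confined to members, although Actc1 was below 1 in mesenchyme. Of other genes, the histone gene Hist1h2bc had a ratio of 2.90, with 49.8 CPM in +/+ and 145 CPM in F/F members and UMIs in 75 F/F members. The whole list (14 genes) summed to 1293 and 2111 CPM in members, 995 and 1741 CPM in chamber and vascular endothelium and 15204 and 17509 CPM in all other cells. The epicardial list summed to 29.5 and 119 CPM in members, the myeloid list to 99.6 and 45.6 CPM and the mesenchyme list to 1372 and 1201 CPM. The part of these transcripts in the differences between the libraries was not tested. Apln, Stab2 and Adgre1, markers of sprouting vessels, sinusoids and macrophages, had 0 UMIs in the members of both libraries.

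**Figure D4:**
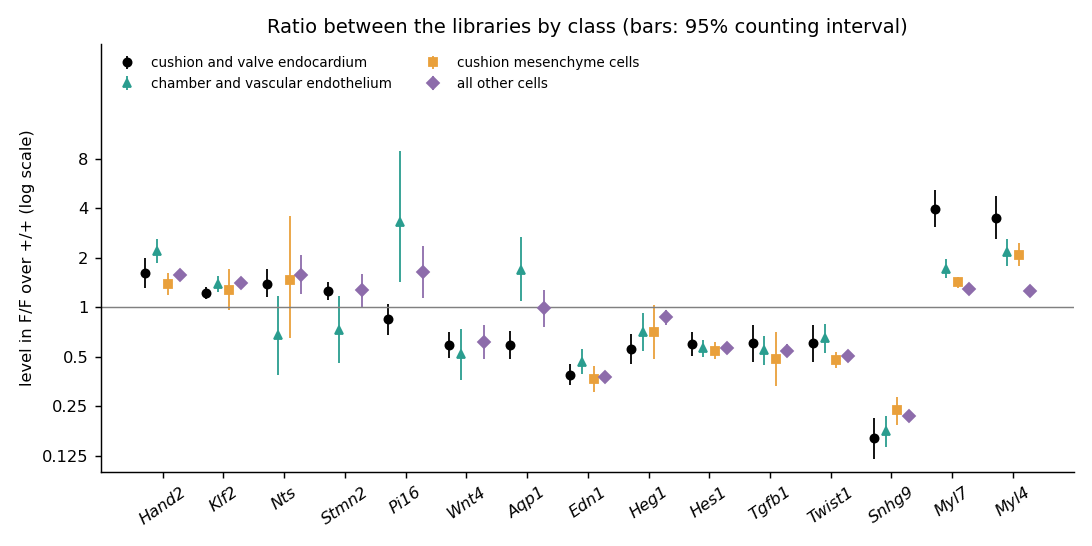
Ratio of CPM in the F/F to the +/+ library (log axis; 1 is no difference) for 15 genes in members (black circles), chamber and vascular endothelium (green triangles), cushion mesenchyme (orange squares) and all other cells (purple diamonds), with 95% exact intervals; a class with under 20 UMIs of a gene is not drawn. Hand2 lies above 1 and Edn1, Hes1, Tgfb1, Twist1 and Snhg9 lie below 1 in all 4 classes, while Aqp1 is below 1 in members (0.591) and above 1 in chamber and vascular endothelium (1.69).

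In the bulk hearts, F/F was compared with F/+ in the same genes, on values in FPKM (read numbers scaled by transcript length and library size). A level in whole hearts cannot tell fewer cells of a type from less RNA per cell. limma called 1 of 11491 genes (0.0087%) at a Benjamini-Hochberg adjusted p under 0.05, the microRNA gene Mir6236, and no gene of the members' lists. Before adjustment 502 genes (4.37%) had a p below 0.05, and for 1061 (9.23%) each F/F value lay on the same side of each F/+ value.

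Wnt4 was 4.30, 4.52 and 4.19 FPKM in F/+ replicates 1 to 3 and 6.65, 5.75 and 6.05 FPKM in F/F. The groups did not overlap, but the log2 fold change of 0.42 (SE 0.24) did not pass limma's test (adjusted p 0.999). Its order was opposite to that in the single cells, where the controls were +/+. Klf2 was 33.0, 36.5 and 37.3 against 44.7, 49.4 and 35.1 FPKM, with an overlap of the groups (log2 fold change 0.26, SE 0.18). Aqp1 was 9.77, 8.84 and 14.4 FPKM in F/+ and 15.0, 5.59 and 13.8 FPKM in F/F, so the spread of F/F covered that of F/+. Hand2 was 58.6, 77.5 and 86.7 against 75.9, 79.1 and 69.2 FPKM (log2 fold change 0.03, SE 0.18), and again the groups overlapped. Whole hearts therefore showed no difference past the test in Hand2 or in the members' markers (limma adjusted p 0.999 for each, Benjamini-Hochberg over all genes).

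Of the genes lower in F/F single cells, Edn1 was 2.15, 4.17 and 0.76 FPKM in F/+ and 5.47, 2.46 and 2.59 FPKM in F/F hearts. Heg1 was 13.4, 12.1 and 10.9 against 13.7, 14.5 and 14.5 FPKM, without overlap and with F/F the higher (log2 fold change 0.22, SE 0.19). Hes1 was 17.8, 27.4 and 18.5 against 23.1, 26.6 and 13.8 FPKM. Twist1 was 27.5, 90.2 and 29.9 against 34.5, 20.2 and 28.7 FPKM, with F/+ replicate 2 far above the others. None of these bulk differences passed limma's test (Benjamini-Hochberg adjusted p 0.999 for each). Of the 185 genes higher in members than in chamber and vascular endothelium, 164 were tested in bulk and 22 (13.4%) did not overlap between the groups, 20 of them higher in F/F, beside 9.23% of all genes (566 higher and 495 lower). Among the genes without overlap, named here after their values were seen, Hey2 (31.8, 29.2 and 26.4 against 38.9, 35.5 and 41.1 FPKM), Tbx20 (61.8, 73.4 and 54.0 against 91.5, 80.5 and 93.6) and Smad6 (38.9, 45.6 and 37.2 against 63.2, 53.8 and 47.3) stood higher in each F/F heart than in any F/+ heart. Their log2 fold changes were 0.39, 0.49 and 0.42 (SE 0.17 each), with limma adjusted p 0.999 each. Y-linked genes reached 1 FPKM in 1 of 3 F/+ and 2 of 3 F/F libraries.

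**Figure D5:**
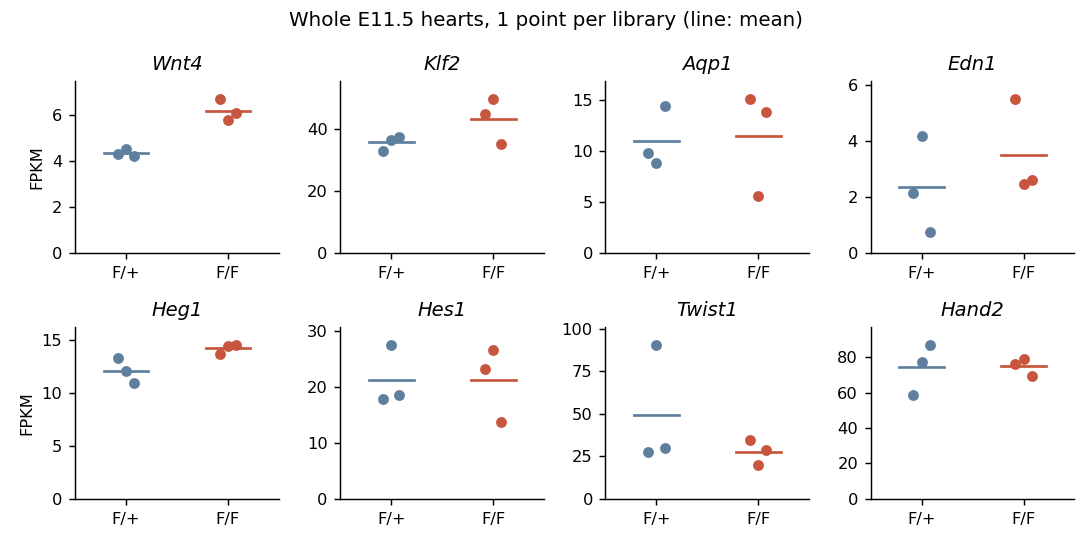
FPKM of 8 genes in the 3 F/+ (blue) and 3 F/F (red) whole E11.5 hearts, with 1 point per library and a line at the group mean. Wnt4 and Heg1 were higher in each F/F library than in any F/+ library (Wnt4 4.19 to 4.52 against 5.75 to 6.65), and the groups overlapped for the other 6 genes.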

How the data were processed

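Members, gene lists and splits were chosen with earlier results of these data known. The single-cell table holds UMI counts per gene and barcode (19010 genes after lines of 1 symbol were summed), deposited by the authors and made with Cell Ranger on mm10, per the submitters' processing notes; barcode endings name the library. For bulk, the authors deposited FPKM; no header names the unit, which was inferred from the values (column sums 376930 to 586795, slope of 0.152 on log2 length over 10358 genes), so depth is unknown, and 19 columns of other stages were not used. CASAVA and TopHat2 2.0.11 on mm9 are named for bulk in the submitters' processing notes; the counting software is not given in the sources used here.

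Within each class and library UMIs were added up and scaled to CPM (Python 3.11.15, numpy 2.4.6, scipy 1.17.1, pandas 2.3.3), with exact Poisson, Clopper-Pearson and conditional ratio intervals. Cells share their library, so intervals cover counting error only. Genes needed at least 50 UMIs over the groups compared. A scrublet run (scanpy 1.11.5) marked 9 and 3 barcodes, too few to be working, so doublets were kept and removed only as an alternative (53 and 96 barcodes, 3 and 1 of them members). Bulk values were tested on the log2(FPKM + 1) scale, after a filter that kept mean levels of 1 FPKM or more, with limma 3.58.1 (trend) in R 4.3.3; such fold changes understate changes of low genes. The labels do not say whether bulk replicates were separate embryos, so p-values measure the spread between these libraries. On simulated bulk data the fit recovered 31% of 100 genes with a log2 change of 1 and 81% of 100 with a log2 change of 2 (among 11491), with 4 false calls.

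Named genes were the markers, rule genes and Hand2, the 14 highest and 8 lowest class ratios (at least 100 UMIs), the 10 highest and 10 lowest library ratios, and from each list the 4 most abundant genes and those past the fold threshold, of which the text prints a part. Motif matches, the Wnt4 split and Sox9, Postn and Cdh5 beside it were chosen after values were seen. Alternatives were other margins, gates and UMI minimums, leaving out each marker, thinning, cells with Xist and without Y-linked UMIs, doublet removal, and for bulk the pseudocount, the filter, the replicate block and leaving out each library.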

Additional observations from a re-analysis of the deposited data

How the results depend on the processing

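The share of members among endothelial cells was 29.4% in +/+ and 33.0% in F/F. It became 21.8% and 23.5% with a margin of at least 3 UMIs, 21.8% and 21.1% without Stmn2 in the rule, 23.9% in +/+ without Wnt4, 25.8% in F/F without Nts, and 23.5% and 26.5% with at least 2 cushion markers per cell (an alternative added after seeing the data). At a minimum of 100 UMIs per gene, 116 genes were higher and 81 lower in members than in chamber and vascular endothelium, and 61 higher and 123 lower in F/F members. After thinning, the last counts were 64 and 112. Fewer genes or UMIs are tested under these settings. The ratio of Hand2 between the libraries stayed between 1.38 and 1.84 over 13 alternatives. Of 3817 values of single genes, 3386 were counted as the same, 408 as moved and 23 as reversed. Some ratios near 1 changed side and were still counted as the same. Tinagl1, for F/F against +/+ members, went from 0.985 to 1.009 without the cell with the most UMIs in each library. The 23 are therefore not all the values that changed side.

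The cause of the reversed ratios was not tested. For members against chamber and vascular endothelium they were, with at least 5 endothelial UMIs, Car3 0.771 and Rrm2b 0.992 in +/+. With a margin of at least 3 they were Gp1bb 1.17 in F/F, Tcf21 1.37 and B930036N10Rik 0.504 in +/+. Without Wnt4 they were Tcf21 0.776 in F/F and Fn1 1.04 in +/+. Without Nts it was B930036N10Rik 0.129 in +/+, without Stmn2 B230312C02Rik 0.474 in +/+ and Col1a2 1.02 in F/F, and after thinning Nkd1 0.905 in F/F. With 2 or more markers they were Car3 0.602 and 0.187 and Fn1 1.06 in +/+, and without cells with myeloid or epicardial UMIs Upk3b 1.98 in +/+. For F/F against +/+ members they were B930036N10Rik 2.78 (margin), 1.87 (without Nts) and 1.95 (without the cell with the most UMIs in each library, an added alternative; 70 of its 77 +/+ UMIs lay in 1 cell), Sparc 0.973 (margin) and 0.986 (without Wnt4), Fn1 1.004 (without Stmn2), Car3 0.644 (2 or more markers) and Col1a2 0.837 (without those cells).

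In bulk, limma called 1 to 2 genes when each library was left out, 2 without F/+ replicate 3. The log2 fold change of Hand2 then ranged from -0.13 to 0.15, of Hes1 from -0.21 to 0.24, of Aqp1 from -0.25 to 0.39, of Stmn2 from -0.69 to 0.23 and of Nts from -0.97 to 0.19. With the replicate number as a block 2 genes were called instead of 1. Same-numbered libraries correlated at -0.036, -0.017 and 0.082, where the highest correlation with another number was 0.106, 0.029 and 0.002. With only 3 libraries per group, these values cannot decide whether the numbers pair the samples. Depth limits the single-cell values of genes under 50 UMIs, which were not compared.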
